A study of Homo sapiens with 8 samples.

Results

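Extracellular matrix genes were followed through acquired resistance to tyrosine kinase inhibitors (TKI) in A204, an established human malignant rhabdoid tumor cell line that has lost SMARCB1, which belongs to the core of SWI/SNF, a complex that remodels chromatin. The set holds 35 of the 20046 genes that the array names, chosen by name as collagens, laminins and other matrix components, and each gene is given by the probe with the highest mean over the 8 arrays (35 of the 60 probes that these genes have, among 48107). The resistant sublines DasR, PazR and SunR were grown out of parental A204 cells in dasatinib, pazopanib or sunitinib, with the dose raised from 500 nM to 5 µM over 6 weeks, and were profiled in their own drug, with 1 array each. Parental A204 cells given 5 µM of dasatinib, pazopanib or sunitinib had 1 array each, and parental cells labeled as without drug had 2. A DMSO control is mentioned in the paper, and whether these untreated cells had vehicle is not settled. All 8 arrays are of cells without SMARCB1, each subline is a single line, and it is not stated in the sources at hand whether a subline came from 1 clone.

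The matrix around cells is built from fibrillar collagens, from the sheet-like basement membrane of laminins, type IV collagen and nidogens, and from glycoproteins, proteoglycans and elastic fibers that link these to each other and to the cell. Collagen chains are hydroxylated and folded in the endoplasmic reticulum, trimmed outside the cell and then cross-linked by lysyl oxidases, whereas laminins assemble inside the cell as trimers of an α, a β and a γ chain. Cells sense this material through integrins and other receptors, and tumor cells lay down matrix of their own.

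Values are deposited log2 signals, on which a difference of 1 is a doubling. The height of signals from genes with no reason to be expressed was taken from 29 measured markers of blood, endothelial, epithelial, muscle, liver, pancreatic and retinal cells. Their means over the 8 arrays lay between 6.33 and 7.37, the highest being ALB, with a median of 6.57, their summed signal was between 191.00 and 191.47 in resistant, 189.92 and 191.32 in treated parental and 190.88 and 191.79 in untreated cells, and 0 of the 29 passed in any comparison between groups. The 2 SMARCB1 probes gave 6.64 to 6.85 in resistant, 6.69 to 6.93 in treated parental and 6.77 to 6.92 in untreated cells, as low as the markers. Signals under 7.37 are therefore taken as no evidence of expression, a height set by ALB alone, since the next marker mean was 6.95. A fold change with an end at that height may be understated. The arrays also fell into sets that cross the groups. A probe for 28S ribosomal RNA (RNA28SN5) gave 8.61 to 9.35 in resistant cells, 12.44 to 12.55 in treated parental cells, 8.35 in untreated replicate 1 and 11.84 in untreated replicate 2. Untreated replicate 1 thus stood with the sublines and replicate 2 with the treated parental cells, and the calls between resistant and treated parental cells are also given with a term for the sets.

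Of the 35 members, 16 stayed under 7.37 in all 8 arrays, with array values of 6.26 to 7.36. They were the fibrillar collagens COL1A1 and COL1A2, the basement membrane collagens COL4A1 and COL4A2, COL6A3, COL8A1, the adhesive proteins FN1, TGFBI, POSTN, THBS1 and THBS2, the lysyl oxidase LOXL2, the proteoglycans LUM and BGN, and ELN and FBN1 of elastic fibers. Their differences between resistant and treated parental cells were between -0.24 and 0.33, and those between resistant and untreated cells between -0.23 and 0.26. The other 19 exceeded 7.37 in at least 1 array, as the heat map of all members shows.

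**Figure D1:**
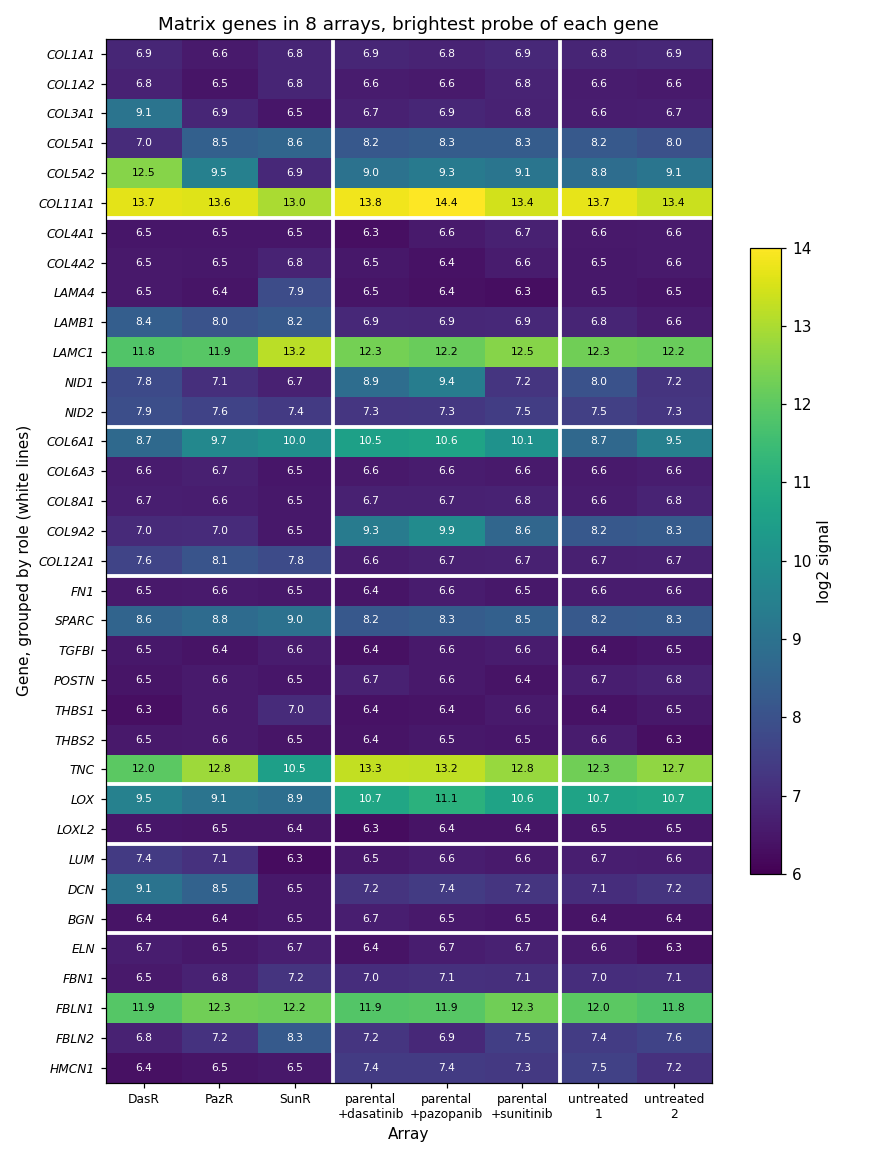
Log2 signal of the 35 matrix genes (rows, grouped by role) in the 8 arrays (columns, resistant sublines at the left, then treated parental and untreated cells), with the value printed in each cell and in the color scale. The dark rows, such as COL1A1, COL4A1 and FN1, are the 16 genes under 7.37 in every array, and COL5A2, COL3A1, DCN and LAMA4 change color among the 3 sublines.

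COL4A1 and COL4A2, which encode the chains of the common type IV collagen trimer, lie head to head on chromosome 13 with 126 bases between the gene models. COL4A1 gave 6.49, 6.49 and 6.48 in DasR, PazR and SunR, 6.33 to 6.74 in treated parental and 6.56 and 6.57 in untreated cells. COL4A2 gave 6.53, 6.51 and 6.79 in the sublines, 6.41 to 6.60 in treated parental and 6.52 and 6.59 in untreated cells. Neither gene had a signal above the markers in any array. The window around the start of COL4A2 (RefSeq, GRCh38.p14, chr13:110307034-110307333, plus strand) is printed because it overlaps that of COL4A1 and so holds the shared promoter of the pair. Capitals mark a CCAAT box (CCAAT) and a GC box (GGGCGG), on either strand.
COL4A2: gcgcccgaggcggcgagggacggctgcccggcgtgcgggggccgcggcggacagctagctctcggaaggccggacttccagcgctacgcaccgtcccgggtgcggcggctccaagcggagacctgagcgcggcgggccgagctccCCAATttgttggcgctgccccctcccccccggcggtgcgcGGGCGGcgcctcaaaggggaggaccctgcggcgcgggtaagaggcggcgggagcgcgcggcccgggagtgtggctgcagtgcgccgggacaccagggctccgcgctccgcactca

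Between resistant and treated parental cells, LAMB1 and COL12A1 rose and COL9A2, LOX and HMCN1 fell. These 5 of 35 members (14.3%) passed an adjusted p of 0.05, 2 of them higher and 3 lower, where 6.04% of all probes passed (2.71% higher and 3.33% lower). The median difference over the members was 0.01, next to 0.00 over all probes, and 20 members were higher and 15 lower in mean. With 5 members against a share of 6.04%, nothing is read from the count about the set as a whole. The values of the resistant arrays lay above all treated parental values for 4 members (LAMB1, COL12A1, SPARC and LOXL2) and below all of them for 5 (COL9A2, LOX, HMCN1, COL6A1 and COL8A1), against 12.5% and 13% of all probes. With untreated cells as the comparison, 2 members passed higher (LAMB1 and COL12A1) and 2 lower (LOX and HMCN1), where 0.158% and 0.118% of all probes did (0.276% in all). Both comparisons share the resistant arrays.

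LAMB1, the laminin β1 chain that is part of most embryonic and many adult laminin trimers, gave 8.40 in DasR, 8.04 in PazR and 8.22 in SunR, against 6.93, 6.90 and 6.94 in parental cells with dasatinib, pazopanib and sunitinib and 6.83 and 6.61 in untreated cells. The 3 sublines were above the 5 parental arrays, which lay at the height of the markers. The difference was 1.30 ± 0.13 from treated parental cells (SE, n = 3 arrays each, 2.46-fold, adjusted p = 0.000421) and 1.50 from untreated cells (adjusted p = 0.000433). Leaving out any array kept both calls, with adjusted p of at most 0.0067 and 0.021. The second LAMB1 probe gave 8.50, 8.03 and 8.22 in the sublines, against 6.67, 6.71 and 6.96 in treated parental cells, and passed as well. LAMB1 thus had the same direction in each drug, by 1.47 for dasatinib, 1.14 for pazopanib and 1.29 for sunitinib.

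COL12A1, a fibril-associated collagen found on the surface of collagen I fibrils, gave 7.63, 8.09 and 7.82 in DasR, PazR and SunR, against 6.61, 6.71 and 6.75 in treated parental cells and 6.69 and 6.74 in untreated cells. Again the 3 sublines lay above all parental arrays, and these were at the height of the markers. The difference from treated parental cells was 1.16 ± 0.13 (SE, n = 3 arrays each, 2.23-fold, adjusted p = 0.000734) and that from untreated cells 1.13 (adjusted p = 0.0026, and 0.06 without untreated replicate 2). A second COL12A1 probe, annotated to another transcript, gave 6.47, 6.77 and 6.68 in the sublines, against 6.68, 6.78 and 6.74 in treated parental cells, a difference of -0.09. It was at the height of the markers in every array, so that the increase rests on 1 probe.

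The promoters of both genes that rose are shown for their base composition and motifs. Both windows lie on the minus strand of RefSeq's GRCh38.p14, LAMB1 at chr7:108003112-108003411 and COL12A1 at chr6:75206004-75206303, from 250 bases before to 50 bases after the annotated start. Capitals mark the GC box (GGGCGG, on either strand, where neighboring matches may overlap), with 4 matches in LAMB1 and 2 in COL12A1, and neither window has a CCAAT box, a TATA box (TATAAA) or an AP-1 site (TGANTCA).
LAMB1: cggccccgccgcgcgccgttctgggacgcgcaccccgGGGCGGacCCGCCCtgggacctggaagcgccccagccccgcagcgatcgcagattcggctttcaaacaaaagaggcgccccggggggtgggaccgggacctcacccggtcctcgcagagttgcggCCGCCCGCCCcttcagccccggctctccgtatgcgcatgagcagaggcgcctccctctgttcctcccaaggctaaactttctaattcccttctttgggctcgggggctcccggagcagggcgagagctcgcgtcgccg
COL12A1: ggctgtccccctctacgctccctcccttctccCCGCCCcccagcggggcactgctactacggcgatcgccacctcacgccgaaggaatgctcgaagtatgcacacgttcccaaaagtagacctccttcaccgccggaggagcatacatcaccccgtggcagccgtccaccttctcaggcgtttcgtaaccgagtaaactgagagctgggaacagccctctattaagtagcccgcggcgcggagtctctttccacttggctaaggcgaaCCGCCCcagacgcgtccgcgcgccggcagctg
Windows were found for 24 of the 35 members. The GC box occurred in 18 of the 24 (75%) and in 45% of all 35116 windows, CCAAT in 8 (33.3%) and 34.6%, TATAAA in 2 (8.33%, POSTN and THBS2) and 11.5%, and the AP-1 site in 1 (4.17%, POSTN) and 7.71%. The member shares are per gene (LOX, with several windows, counts once), while the shares of all windows are per window. A match is a description of the letters and not evidence of a bound factor.

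COL9A2, a chain of the cartilage collagen IX, had the largest decrease among the members. It gave 6.96, 6.99 and 6.51 in DasR, PazR and SunR, against 9.34, 9.86 and 8.64 in treated parental cells and 8.19 and 8.29 in untreated cells. All 3 sublines were at the height of the markers and all 5 parental arrays above it. The difference from treated parental cells was -2.46 ± 0.27 (SE, n = 3 arrays each, 5.51-fold lower, adjusted p = 0.000632), which held whichever array was left out (adjusted p of at most 0.005). That from untreated cells was -1.42 and did not pass (adjusted p = 0.095), although the groups did not overlap. Treated parental cells were above untreated cells by 1.04 (adjusted p = 0.182), and by 1.36 when the sunitinib array was left out (adjusted p = 0.021).

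LOX, the enzyme that starts the cross-linking of collagen and elastin, gave 9.52, 9.06 and 8.89 in DasR, PazR and SunR, against 10.72, 11.10 and 10.63 in treated parental cells and 10.66 and 10.74 in untreated cells. Every subline was below every parental array, and all 8 values were above the markers. The difference was -1.66 ± 0.25 from treated parental cells (SE, n = 3 arrays each, 3.15-fold lower, adjusted p = 0.0035, and at most 0.03 whichever array was left out). From untreated cells it was -1.54 (adjusted p = 0.035), a call that was lost without either untreated array, without PazR or SunR and without the parental dasatinib array, with an adjusted p of up to 0.463.

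HMCN1, a very long fibulin family protein of basement membranes and cell junctions, gave 6.36, 6.47 and 6.50 in the sublines, against 7.38, 7.40 and 7.32 in treated parental cells and 7.53 and 7.15 in untreated cells. The sublines were below all parental arrays, but only 3 of the 5 parental values reached above 7.37. The difference was -0.92 ± 0.09 from treated parental cells (SE, n = 3 arrays each, 1.89-fold lower, adjusted p = 0.000288) and -0.90 from untreated cells (adjusted p = 0.0072). Both calls held whichever array was left out.

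**Figure D2:**
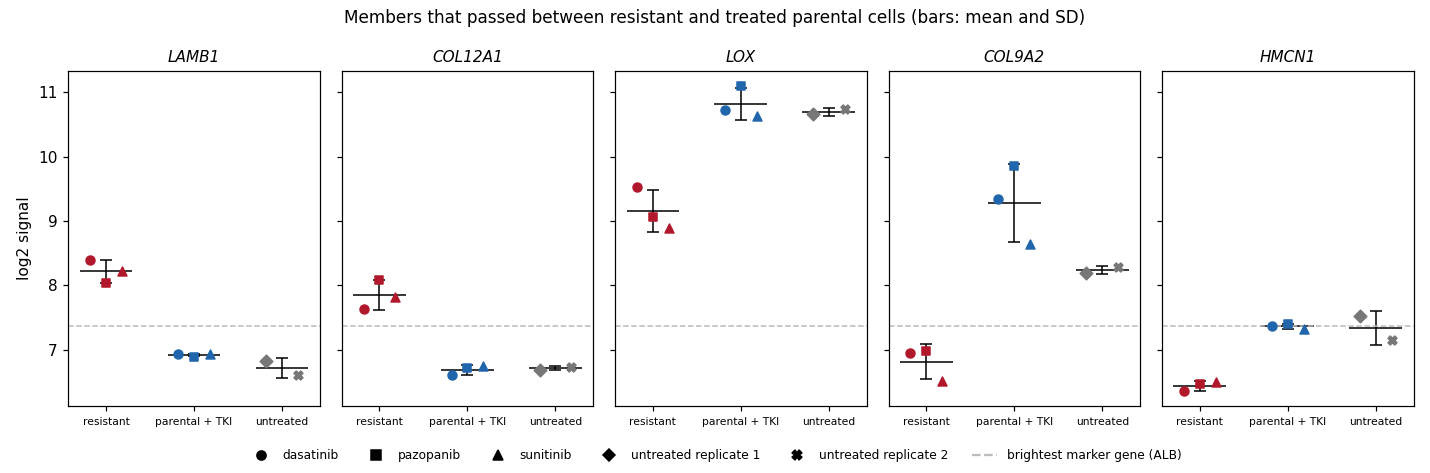
Log2 signal (vertical axis) of the 5 members that passed between resistant and treated parental cells, with 1 point per array, marked by drug, in resistant, treated parental and untreated cells from left to right. Bars are the mean and SD (n = 3, 3 and 2 arrays), the dashed line is the mean of ALB (7.37), and in no panel do the resistant arrays overlap the others.

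The promoters of COL9A2 (chr1:40317237-40317536, minus strand) and LOX (chr5:122078210-122078509, minus strand, the first of 3 windows listed for LOX) are given in the same way. Capitals mark 3 GC boxes in COL9A2, and a CCAAT box and a GC box in LOX.
COL9A2: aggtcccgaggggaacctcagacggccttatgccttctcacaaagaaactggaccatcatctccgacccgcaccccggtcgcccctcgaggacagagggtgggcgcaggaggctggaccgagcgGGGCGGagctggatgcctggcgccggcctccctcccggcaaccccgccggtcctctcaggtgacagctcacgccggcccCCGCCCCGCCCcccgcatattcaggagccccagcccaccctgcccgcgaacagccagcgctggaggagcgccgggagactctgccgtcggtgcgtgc
LOX: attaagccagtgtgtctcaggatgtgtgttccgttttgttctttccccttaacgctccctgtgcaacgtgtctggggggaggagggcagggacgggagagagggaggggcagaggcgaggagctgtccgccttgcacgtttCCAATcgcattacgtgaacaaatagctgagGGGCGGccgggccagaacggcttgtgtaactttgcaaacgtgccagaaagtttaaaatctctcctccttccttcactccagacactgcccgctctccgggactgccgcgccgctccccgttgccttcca

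With a term for the array sets, estimated through the 2 untreated arrays and with wider errors, 0 of the 35 members passed, where 1 of 48107 probes did. The 5 called members kept their direction and much of their size. LAMB1 differed by 1.08 (unadjusted p = 0.001), COL12A1 by 1.21 (0.00055), COL9A2 by -2.37 (0.0013), LOX by -1.57 (0.0086) and HMCN1 by -1.30 (2.00e-05). With the drug as a block (arrays of the same drug deviated together), 6 members passed lower in place of 3, where 4.06% of all probes passed lower in place of 3.33%. The added genes were COL11A1, a fibrillar collagen chain of cartilage (-0.47, adjusted p = 0.049), NID1, a nidogen that bridges laminin and collagen IV (-1.30, adjusted p = 0.026), and TNC, the anti-adhesive glycoprotein tenascin C (-1.31, adjusted p = 0.024).

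COL11A1 gave 13.66, 13.61 and 12.97 in DasR, PazR and SunR, against 13.82, 14.39 and 13.44 in treated parental cells and 13.71 and 13.36 in untreated cells. Each subline was below the parental array of its own drug in this probe, although the groups overlapped. A second COL11A1 probe did not pass with the block (-0.33, adjusted p = 0.259). Another, dimmer one had a difference of 0.08. NID1 gave 7.81, 7.07 and 6.75 in the sublines, against 8.87, 9.40 and 7.25 in treated parental cells and 8.02 and 7.22 in untreated cells. Here sunitinib was lowest in both groups, and the untreated arrays were 0.80 apart. TNC gave 11.99, 12.83 and 10.51 in the sublines, against 13.25, 13.23 and 12.76 in treated parental cells and 12.28 and 12.67 in untreated cells. SunR was the lowest of the 8 arrays, and a second TNC probe also had it lowest (10.15, against 12.78 in parental cells with sunitinib). In that second probe PazR was above its parental array by 0.17, and the probe did not pass with the block (-1.20, adjusted p = 0.114). Without the block the adjusted p of the main probes was 0.278 for COL11A1, 0.126 for NID1 and 0.114 for TNC.

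The sublines differed from each other in matrix genes by more than the parental arrays did. The range over the 3 resistant arrays was above 1 for 11 of 35 members, against 2 for the treated parental arrays, and the untreated arrays differed by over 1 for 0 members. Over all probes these shares were 2.78%, 1.67% and 1.28%, and over the 27.2% of probes with a mean above ALB they were 8.33%, 5.74% and 4.33%. The median range over the members was 0.46 in resistant, 0.20 in treated parental and 0.10 in untreated cells, where the last rests on 2 arrays. With 1 array per subline these are values without a test, and a subline cannot be told apart from its drug or its array.

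COL5A2, a chain of the minor fibrillar collagen V, gave 12.54 in DasR, 9.49 in PazR and 6.93 in SunR, against 9.03, 9.29 and 9.12 in parental cells with the same drugs and 8.85 and 9.11 in untreated cells. DasR was thus above the parental array of its drug by 3.52 (11.5-fold), PazR by 0.21, and SunR was below its own by 2.19 (4.56-fold), at the height of the markers. Its range over the sublines, 5.61, was the fifth largest of the 48107 probes. Neighboring COL3A1, the chain of collagen III, starts on chromosome 2 with 19151 bases between the gene models and no protein-coding gene in between. It gave 9.09 in DasR, 6.87 in PazR and 6.47 in SunR, against 6.72, 6.85 and 6.76 in treated parental cells and 6.65 and 6.68 in untreated cells. Only DasR had a COL3A1 signal above the markers. COL5A1, the partner chain of COL5A2 in collagen V, which is encoded on chromosome 9, had the opposite order. It gave 6.98 in DasR, 8.46 in PazR and 8.60 in SunR, against 8.21, 8.33 and 8.34 in treated parental cells and 8.24 and 7.998 in untreated cells, so that DasR was the lowest of the 8 arrays.

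The small leucine-rich proteoglycans DCN (decorin) and LUM (lumican), which bind collagen fibrils, lie next to each other on chromosome 12 with 28989 bases between the gene models, a pair picked out after the values were seen. DCN gave 9.06 in DasR, 8.51 in PazR and 6.51 in SunR, against 7.20, 7.40 and 7.23 in treated parental cells and 7.06 and 7.20 in untreated cells. LUM gave 7.36, 7.13 and 6.26 in DasR, PazR and SunR, against 6.53, 6.65 and 6.57 in treated parental cells and 6.67 and 6.65 in untreated cells. In these probes DasR and PazR were above, and SunR below, all 5 parental arrays, although LUM did not exceed the markers. Other probes did not all have this order. A second DCN probe gave 7.80, 7.01 and 6.60 in the sublines, against 6.72, 6.71 and 6.54 in treated parental cells and 6.72 and 6.46 in untreated cells, so that SunR lay among the parental arrays, and the second LUM probe stayed between 6.30 and 6.44 in the sublines, against 6.32 to 6.48 in treated parental cells. With all arrays neither gene passed between resistant and treated parental cells (adjusted p = 0.424 for DCN and 0.434 for LUM). Without SunR both, by their main probes, passed as higher, so that 4 members and 1307 of all 48107 probes then passed higher. The pair was picked with the SunR values known, so nothing is read from this.

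**Figure D3:**
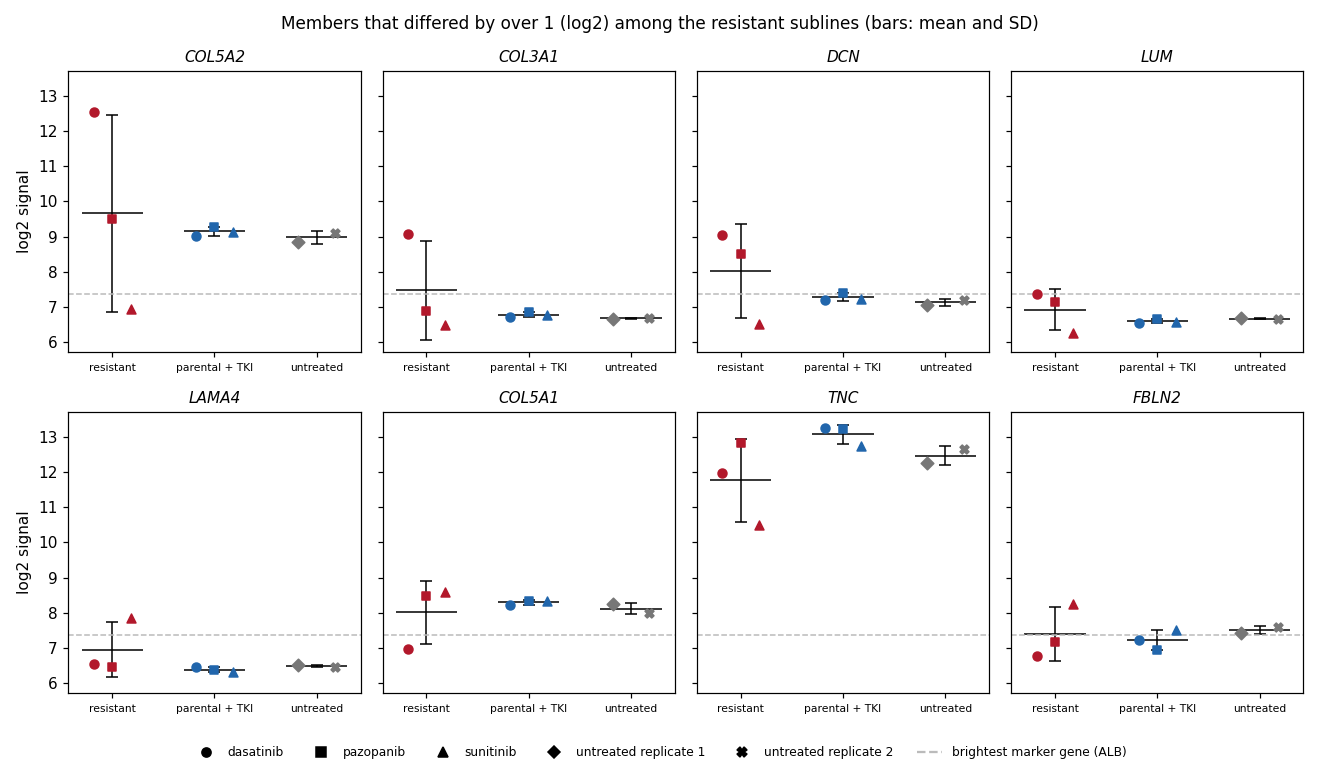
Log2 signal (vertical axis) of 8 of the 11 members whose 3 resistant arrays ranged over more than 1, with 1 point per array, marked by drug, in resistant, treated parental and untreated cells from left to right. Bars are the mean and SD (n = 3, 3 and 2 arrays) and the dashed line is the mean of ALB (7.37). For COL5A2 the resistant arrays spread between 6.93 and 12.54, while the 5 parental arrays stay between 8.85 and 9.29.

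For LAMA4, LAMC1 and FBLN2, picked out after their values were seen, SunR had the highest value of the 8 arrays. LAMA4, the laminin α4 chain of vessel and muscle basement membranes, gave 6.54 in DasR, 6.44 in PazR and 7.85 in SunR, against 6.45, 6.37 and 6.30 in treated parental cells and 6.50 and 6.46 in untreated cells. It was above the markers in SunR only, and a second probe also gave its highest value there (7.06). LAMC1, the γ1 chain that pairs with β1 in most laminins, gave 11.83, 11.92 and 13.18 in DasR, PazR and SunR, against 12.34, 12.18 and 12.55 in treated parental cells and 12.27 and 12.17 in untreated cells. FBLN2, a fibulin of basement membranes and elastic fibers, gave 6.78, 7.16 and 8.26 in the sublines, against 7.22, 6.92 and 7.49 in treated parental cells and 7.42 and 7.60 in untreated cells. None of these 3 genes passed between groups.

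COL6A1, a chain of the beaded filament collagen VI, gave 8.73 in DasR, 9.75 in PazR and 9.98 in SunR, against 10.55, 10.65 and 10.08 in treated parental cells and 8.70 and 9.49 in untreated cells. The sublines were below the treated parental arrays (-0.94, adjusted p = 0.123) but overlapped the untreated ones, and treated parental cells were above untreated cells by 1.33 without passing (adjusted p = 0.182). SPARC, a collagen-binding matricellular protein, gave 8.58, 8.80 and 8.99 in the sublines, against 8.20, 8.31 and 8.46 in treated parental cells and 8.25 and 8.28 in untreated cells. It was higher in 3 of 3 sublines by 0.38 to 0.53 within a drug, and the difference of 0.46 did not pass (adjusted p = 0.192). NID2, the second nidogen, gave 7.92, 7.61 and 7.35 in the sublines, against 7.26, 7.30 and 7.45 in treated parental cells and 7.53 and 7.26 in untreated cells, with overlap. FBLN1, the main probe of which lay between 11.89 and 12.28 in resistant, 11.85 and 12.28 in treated parental and 11.79 and 11.98 in untreated cells, differed little in that probe. A probe for another FBLN1 transcript gave 9.92, 9.62 and 8.76 in the sublines, against 10.51, 10.39 and 10.21 in treated parental cells, with a difference of -0.94 that did not pass without the drug block (adjusted p = 0.094) and passed with it (adjusted p = 0.039).

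Within each drug, with 1 array against 1, the resistant array was above its parental array by over 1 for 5 members in dasatinib, 3 in pazopanib and 3 in sunitinib, where 2.06%, 1.53% and 1.78% of all probes were. It was lower by over 1 for 7, 3 and 4 members, where 2.37%, 1.84% and 1.71% of all probes were. LAMB1 and COL12A1 were higher by over 1, and COL9A2 and LOX lower by over 1, in all 3 drugs. A test of drug over both states, which takes the difference between drugs to be alike in resistant and parental cells, passed for 0 of 35 members and for 0.0104% of all probes. At an unadjusted p under 0.05 there were 9 members, where 6.81% of all probes were, and COL11A1 had the lowest p (0.0014).

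**Figure D4:**
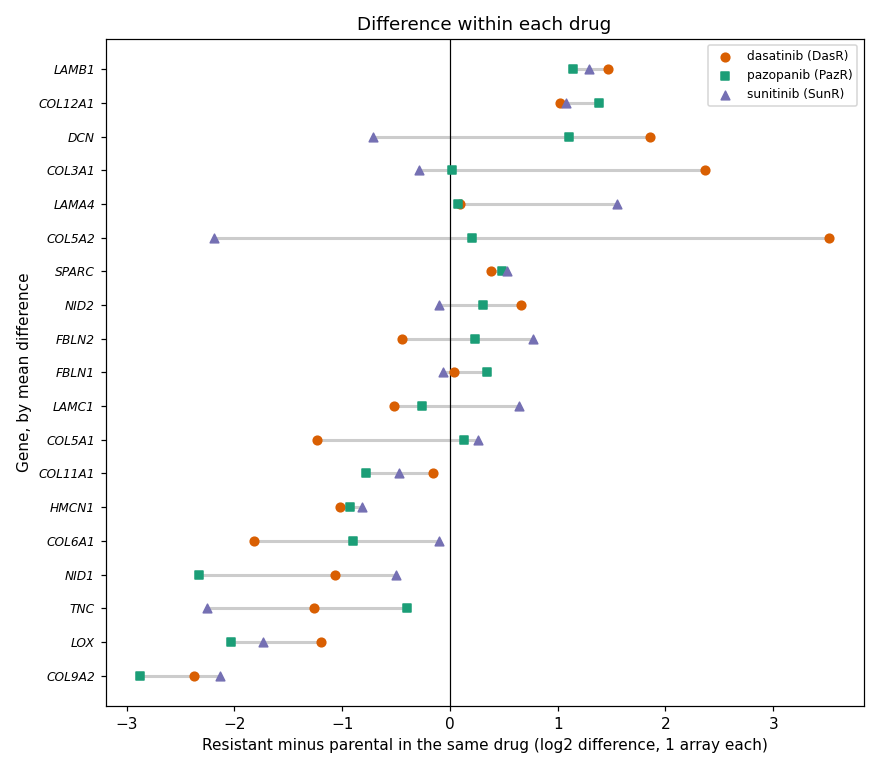
Difference in log2 signal between the resistant subline and parental cells in the same drug (horizontal axis, 1 array each) for the 19 members above 7.37 in at least 1 array, ordered by the mean difference. LAMB1 and COL12A1 lie right of 1 and COL9A2 and LOX left of -1 in all 3 drugs, and COL5A2 runs between -2.19 for sunitinib and 3.52 for dasatinib.

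Drug treatment of parental cells moved no member past the threshold. Between treated and untreated parental cells 0 of 35 members passed in limma, where 0.00416% of all probes (2 probes) did, and 2 members had an unadjusted p under 0.05, where 12.4% of all probes did. In the other settings of limma tried, a member passed only where the parental sunitinib array was left out, which was COL9A2. Of all probes 390 then passed higher and 190 lower. The median difference over the members was 0.06. The highest differences were those of COL6A1 (1.33), COL9A2 (1.04), NID1 (0.89) and TNC (0.61), and the lowest that of FBLN2 (-0.30). For 3 of these genes, COL6A1, NID1 and TNC, the untreated arrays were 0.39 or more apart.

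Of 29 measured genes that make and process collagen (30 listed), 8 fell and 0 rose against treated parental cells (27.6%, where 3.33% of all probes passed lower), with a median of -0.39. The list is bright, with 18 genes above ALB. Among the brighter 50% of probes 10 of 24 listed genes and 1838 of 24053 probes passed lower. PLOD2, which hydroxylates telopeptide lysines of collagen, gave 8.89, 9.25 and 9.17 in DasR, PazR and SunR, against 10.86, 10.95 and 10.60 in treated parental cells and 10.63 and 10.61 in untreated cells. Its difference was -1.70 ± 0.22 (SE, n = 3 arrays each, adjusted p = 0.0017), and -1.52 from untreated cells (adjusted p = 0.019), as for LOX with no overlap of the sublines and the 5 parental arrays. The call against untreated cells did not hold without untreated replicate 2. The other 7 were the prolyl 4-hydroxylase subunits P4HA2 (-1.12) and P4HA1 (-1.17), the prolyl 3-hydroxylase P3H1 (-1.02) and its relative P3H3 (-1.14), the collagen chaperone SERPINH1 (-0.99), the procollagen C-proteinase enhancer PCOLCE (-0.83) and PXDN (-0.49), a peroxidase that cross-links collagen IV and whose signals lay near the height of the markers.

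**Figure D5:**
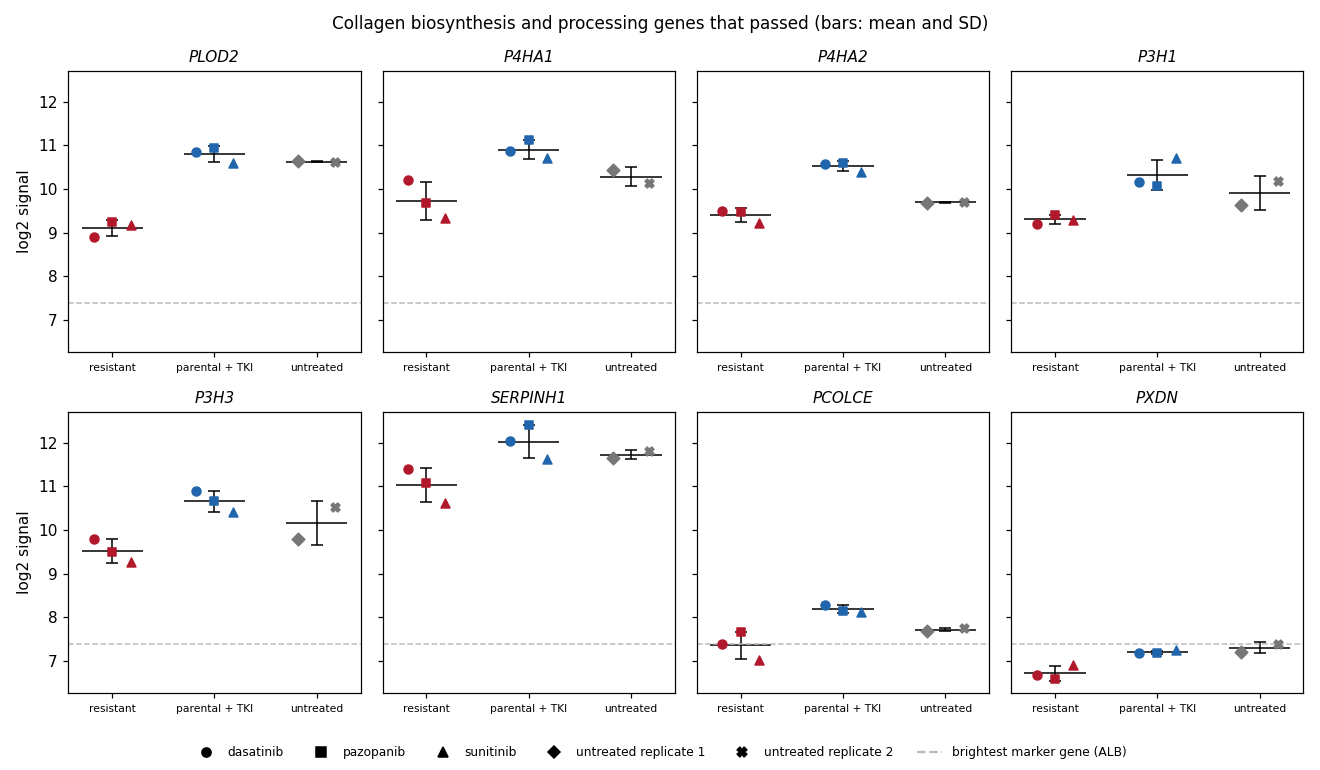
Log2 signal (vertical axis) of the 8 genes of collagen biosynthesis and processing that passed, with 1 point per array, marked by drug, in resistant, treated parental and untreated cells from left to right. Bars are the mean and SD (n = 3, 3 and 2 arrays) and the dashed line is the mean of ALB (7.37). The untreated arrays of PLOD2 lie with the treated parental arrays, and those of P4HA2 lie between the other groups.

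Against untreated cells only PLOD2 of the 29 passed, with a list median of -0.15. The untreated arrays of P4HA2 gave 9.69 and 9.70, between 9.22 to 9.50 in the sublines and 10.39 to 10.59 in treated parental cells. Without the parental dasatinib or the parental pazopanib array 1 gene of the list passed lower (PLOD2 both times), and without PazR 3. Over all 48107 probes 741, 642 and 873 then passed lower, where 1604 did with no array left out. With the array-set term 0 genes of the list (median -0.31) and 1 of all probes passed. The count of 8 thus depends on those arrays, and calls over all probes became fewer as well. The 28S ribosomal RNA signal, given above, was also higher in treated parental cells than in the sublines, and its part in the result was not tested. That signal set the untreated arrays apart (8.35 and 11.84), while they were alike for PLOD2 (10.63 and 10.61) and P4HA2. They were apart in the same direction for P3H3 (9.80 and 10.52), P3H1 (9.64 and 10.19), PXDN (7.21 and 7.39) and SERPINH1 (11.66 and 11.805). PCOLCE was nearly alike (7.69 and 7.74), and P4HA1 was apart in the other direction (10.44 and 10.13). With the array-set term PLOD2 differed by -1.72, P4HA1 by -1.48, P4HA2 by -1.10 and SERPINH1 by -0.84. PCOLCE then differed by -0.78, P3H1 by -0.47, P3H3 by -0.42 and PXDN by -0.31. Untreated replicate 1 minus replicate 2 had the sign of resistant minus treated parental in 86% of called probes and 60% of all probes.

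Among further collagen chains, 3 of 26 measured genes fell and 0 rose, where 3.33% of all probes passed lower and 2.71% higher. COL6A2, which joins COL6A1 in collagen VI, gave 6.98, 7.45 and 7.32 in the sublines, against 8.91, 9.16 and 8.28 in treated parental cells and 7.28 and 7.97 in untreated cells (-1.53, adjusted p = 0.0033). The other chains were COL8A2 (-0.79) and COL11A2 (-0.41, at the height of the markers). A second COL8A2 probe, at marker height, gave 6.66, 6.60 and 6.64 in the sublines and 6.50, 6.64 and 6.66 in treated parental cells. Of 9 measured laminin chains and basement membrane partners LAMA5 rose (1.07, adjusted p = 0.033) and LAMB2 fell (-1.01, adjusted p = 0.026), and both calls were lost without DasR, SunR, the parental dasatinib or the parental pazopanib array, and that of LAMA5 also without PazR (adjusted p of up to 0.156 for LAMA5 and 0.138 for LAMB2). LAMB2, the β2 chain that can take the place of β1, gave 10.18, 10.62 and 10.05 in the sublines, against 11.29, 11.50 and 11.10 in treated parental cells and 10.12 and 10.41 in untreated cells. The sublines overlapped the untreated arrays in LAMB2, unlike in LAMB1.

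Of 27 measured matrix receptors 1 rose and 0 fell, and with the drug block the collagen receptor chain ITGA10 was added as lower (-0.64, adjusted p = 0.023). ITGA6, the α6 integrin chain of laminin receptors, gave 9.38, 9.63 and 10.26 in DasR, PazR and SunR, against 8.43, 7.85 and 8.49 in treated parental cells and 8.25 and 8.22 in untreated cells. All 3 sublines were above all 5 parental arrays, by 1.50 against treated parental cells (adjusted p = 0.0093, and 0.065 without the parental pazopanib array) and by 1.52 against untreated cells (adjusted p = 0.059). Of 56 further glycoproteins and proteoglycans 2 rose, the adaptor MATN2 (1.34, adjusted p = 0.0044) and the matricellular protein CCN1 (0.93, adjusted p = 0.0076), and 2 fell, LTBP4, a latent TGF-β binding protein (-1.60, adjusted p = 0.0022), and HAPLN3, a hyaluronan link protein (-0.83, adjusted p = 0.031). MATN2 also passed against untreated cells (1.49, adjusted p = 0.014), the only one of the 56 to do so. That call did not hold without untreated replicate 2. LTBP4 gave 7.95 in untreated replicate 1 and 9.41 in replicate 2, a difference about as large as its change. With the drug block ECM2 was added as higher (0.42, adjusted p = 0.022) and VTN, vitronectin, as lower (-0.39, adjusted p = 0.022). Of the 6 settings that leave out 1 array, COL8A2 passed only in the one without the parental sunitinib array, while the call of COL11A2 was lost without PazR or the parental pazopanib array, and that of HAPLN3 without DasR, PazR, or the parental dasatinib or pazopanib array. With the array-set term 0 genes of these 4 lists passed. The differences were then -0.84 for COL6A2, -0.36 for COL8A2, -0.61 for COL11A2, 1.07 for LAMA5, -0.72 for LAMB2, 1.47 for ITGA6, 1.00 for MATN2, 1.00 for CCN1, -0.14 for LTBP4 and -0.44 for HAPLN3. Each list was chosen with the members' results known, and the share of probes that passed was 2.71% higher and 3.33% lower.

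Members on chromosomes 13 and 17 were also set side by side in the sublines. COL4A1, COL4A2, POSTN and COL1A1 gave 6.49, 6.53, 6.46 and 6.87 in DasR, against 6.49, 6.51, 6.59 and 6.57 in PazR and 6.48, 6.79, 6.48 and 6.82 in SunR. All of these values lay at the height of the markers and say nothing of gene dose.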

How the data were processed

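Gene expression was measured on 8 Illumina HumanHT-12 arrays of A204 cells. Per the paper's methods, the authors used beadarray, a log2 transformation and quantile normalization. The deposited log2 intensity of 48107 probes was used as given. Background treatment, tool version and array batches are not given in the sources used here, and detection p-values were not used here. There is no read depth in array data, and precision is limited by how few arrays there were. Whether arrays come from separate cultures is not stated, so p-values measure only the spread between these arrays.

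Probes were named through the platform annotation with symbols updated by RefSeq (30113 with 1 symbol, 8 with several, 17986 with none). Tests were made over all probes with limma 3.58.1 in R 4.3.3, by lmFit and then eBayes with a trend on intensity, with Benjamini-Hochberg adjustment and a threshold of 0.05, and the code was tested on simulated data. Resistant and treated parental cells were compared over 6 arrays, and both were compared with untreated cells in 1 fit of all 8. Drugs were compared by an F test in a model of state and drug. Drugs paired the arrays: deviations from the group means of the resistant and the parental array of a drug correlated at 0.126 (dasatinib), 0.184 (pazopanib) and 0.199 (sunitinib) across probes, and at 0.051 or less between different drugs.

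Values in every array are given for members that passed and for the 4 highest and 4 lowest of each comparison with a mean or a group mean above ALB, and for others where they differ among the sublines, which were picked after their values were seen. From each further list up to 4 passing genes of smallest p are named, with the other 4 of collagen processing added after their values were seen. The members, lists and rules were chosen with earlier results of these data known. Promoters are RefSeq windows from 250 bases before to 50 after a start, searched with Python 3.11.15. The alternatives were no trend, robust estimation, the brighter 50% of probes, centering, 1 probe per gene, other probes, 50 added to the linear intensity, leaving out each array, the drug block, the array-set term, the methods' t-test and the study's Signal2Noise ranking.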

Additional observations from a re-analysis of the deposited data

Results flagged for a closer look

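COL5A2 went in opposite directions in different drugs. Its signal in the resistant subline was above that of parental cells in the same drug by 3.52 for dasatinib and by 0.21 for pazopanib, and was below it by -2.19 for sunitinib (log2, 1 array each). This difference between drugs was not tested, since each drug has 1 array in each state. In the test of drug over both states COL5A2 did not pass (adjusted p = 0.732, unadjusted p = 0.055).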

How the results depend on the processing

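The count of members that passed between resistant and treated parental cells was 2 higher and 3 lower. It was 0 and 0 with the methods' t-test after adjustment and with the term for the array sets, 6 lower with the replicate block (drug), and 1 and 1 (LAMB1 and HMCN1) among the 50 most extreme genes of each end by Signal2Noise. Of all 48107 probes, 11 passed higher and 28 lower by the adjusted t-test, and 0 and 1 with the array-set term. Besides the 3 added members, the block changed the call of a second FBLN1 probe and of ITGA10, ECM2 and VTN, and no other call of a member or listed gene. The replicate numbers in the labels belong to untreated arrays only. Leaving out an array gave 2 to 4 higher and 3 lower, where 390 to 1639 of all 48107 probes passed higher and 642 to 2251 lower. Against untreated cells the count lower was 2, and was 1 with 50 added to the linear intensity and 0 without an intensity trend. Of all probes 57, 50 and 30 passed lower in these settings. Leaving out a resistant or treated parental array gave 2 to 4 higher (DCN and LUM added without SunR) and 1 to 2 lower. Of all 48107 probes, 52 to 201 then passed higher and 46 to 67 lower. Leaving out an untreated array leaves 1 in that group, and no count is read from it. Between treated and untreated parental cells, leaving out a resistant or treated parental array gave 0 to 1 members higher. Of all 48107 probes, 0 to 390 then passed higher and 0 to 190 lower. Between drugs, leaving out a resistant or treated parental array gave 0 to 7 members, an alternative chosen after seeing the data. With 1 array left, a drug is taken to vary like the others, so nothing is read from the count between drugs. The cause of these changes was not tested, apart from the larger errors that fewer arrays or an added term bring.

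Direction turned in some uncalled values and, by another probe, in the called difference of COL12A1 from treated parental cells. Other probes turned COL12A1 to -0.09 against treated parental cells and to 0.12 between treated and untreated cells, FBLN2 to 0.07 there and, between sunitinib and the other drugs, DCN to 0.07, FBLN1 to -0.63, -0.60, -0.08 and -0.09 and FBLN2 to -0.07. With 1 array left out, COL3A1 lay between -0.11 (without DasR) and 1.20 against treated parental cells, and between treated and untreated cells COL12A1 lay between -0.06 and 0.01, NID2 between -0.19 and 0.07 and SPARC between -0.01 and 0.12.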
